A study of Mus musculus with 15 samples.

Results

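Cyclin-dependent kinase (CDK) inhibitors and the p53 checkpoint were examined in colon adenoma and normal colon epithelium of male Apc+/Min-FCCC mice through 10 genes. The genes are the Cip/Kip inhibitors Cdkn1a, Cdkn1b and Cdkn1c, the INK4 inhibitors Cdkn2a, Cdkn2b and Cdkn2c, and Trp53, Mdm2, Ccng1 and Gadd45a. They were taken as the probes outside the control spots whose gene name in the scanner files was a listed symbol, which gave 16 probes among 41174, and 10 of 27751 features once each gene was reduced to its brightest probe. All 10 genes were on the array, and all but Cdkn2a were well above background on every one of the 15 arrays.

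CDK inhibitors hold back the kinases that drive a cell through G1 and into S phase. INK4 proteins bind CDK4 and CDK6 and keep them from cyclin D, while Cip/Kip proteins act on cyclin-CDK complexes more broadly. p53, encoded by Trp53, is held low by the ubiquitin ligase Mdm2 and, once stabilised by DNA damage or oncogenic stress, turns on Cdkn1a, Mdm2, Ccng1 and Gadd45a. In the intestine Cdkn1a is known as a gene of differentiated cells above the crypt base, and loss of Apc is known to raise Wnt signalling and Myc.

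Treated adenoma came from tumor-bearing mice fed chow with sulindac, a cyclooxygenase inhibitor, at 300 ppm and atorvastatin, a statin, at 100 ppm for 7 days (4 arrays). Untreated adenoma came from tumor-bearing mice on plain chow (3 arrays). Tumor-bearing epithelium is normal epithelium of tumor-bearing mice and tumor-free epithelium is that of tumor-free mice, both after 7 days of atorvastatin at 100 ppm (4 arrays each). The mice were on a C57BL/6J background, carried 1 mutant germline Apc allele in every group and were sorted by colonoscopy at 6 to 8 weeks of age. The labels of the tumor-bearing epithelium name no strain, and the protocol text sends tumor-bearing mice to plain chow or to both drugs, whereas these labels name atorvastatin alone. The labels were followed. No epithelium from untreated mice was used here, so tissue and drug cannot be told apart between adenomas and epithelia, nor sulindac and atorvastatin within the treated adenomas.

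Levels are log2 intensities relative to the 75th percentile of each array, and between 56.1% and 75.1% of an array's probes were well above background. Of 21 pairs of arrays within a group, 6 differed by less than the noise between replicate spots (SD of the log2 difference 0.0857 to 0.170), against 0.595 to 1.12 in the other 15 pairs. Such arrays were averaged and counted as 1 sample: treated adenoma 2, 3 and 4, untreated adenoma 1 and 2, tumor-bearing epithelium 1 and 3, and tumor-free epithelium 3 and 4. This left 10 samples, of which 2 were treated adenoma, 2 untreated adenoma, 3 tumor-bearing epithelium and 3 tumor-free epithelium. Array 2 of the tumor-bearing and array 2 of the tumor-free epithelium, from different groups, were also nearly alike (SD 0.183, against 0.618 for the next pair across groups) and were kept as 2 samples. The labels call the arrays biological replicates, without saying which animal each came from, so the p-values measure only the spread between these samples. In dissected tissue, fewer cells of a type and less RNA per cell cannot be told apart.

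The tissue labels were compared with marker genes by the summed level over a list on a linear scale. For 8 Wnt target genes raised in Apc-mutant adenoma the sums were 144 to 217 in treated adenoma, 153 to 182 in untreated adenoma, 11.6 to 16.3 in tumor-bearing and 11.5 to 18.8 in tumor-free epithelium. For 6 absorptive colonocyte markers they were 0.941 and 6.43 in treated adenoma, 50.2 and 5.47 in untreated adenoma, and 259 to 340 in tumor-free epithelium. In tumor-bearing epithelium these 6 markers summed to 293 in arrays 1 and 3 and to 340 in array 2, but to 87.8 in array 4. All 5 neutrophil markers were higher in adenomas (sums of 16.4 to 47.7 against 0.0932 to 0.287 in epithelia), and 3 of 4 B and plasma cell markers tested were lower (0.231 to 1.00 against 19.8 to 39.8). Of the neutrophil markers, Cxcr2 was well above background on no epithelium array and S100a8 on no tumor-bearing one. The neutrophil sums of the epithelia thus include readings below background, and Cxcr2 was tested only through adenoma, where it was high. Of 8 epithelial, 6 goblet and 6 smooth muscle markers, 3, 4 and 4 were lower and none higher, and of 5 endothelial and 4 mast cell markers 1 and 2 were higher and 0 and 1 lower. The mast cell sums were 0.290 and 0.629 in treated adenoma and 2.67 and 3.47 in untreated adenoma. They were 1.28 to 2.04 in tumor-bearing and 1.21 to 2.79 in tumor-free epithelium. Mcpt2, a mast cell marker, was well above background on no treated adenoma or epithelium array, so it was tested only through untreated adenoma. No fibroblast, macrophage or T cell marker was called.

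The probes are 60 bases long and are placed by the array design on mouse build mm7. For the genes on which the results below turn, the sequences are given 5′ to 3′ in lower case, the first 30 bases of each.
Cdkn1a, chr17:27293819-27293878, plus strand: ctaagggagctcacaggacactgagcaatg
Cdkn1c, chr7:139886128-139886187, minus strand: cgtagagcagcccacggttttgtggaaatc
Cdkn2a, chr4:88678367-88678426, minus strand: cacttctagcgatgctagcgtgtctagcat
Cdkn2b, no position in the design files: catgtgtggggattcacctgcaaaatggca

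Adenomas and epithelia were compared over all samples, 4 of adenoma and 6 of epithelium. Of the 9 genes well above background on every array, 2 passed an adjusted p of 0.05: Cdkn1c was higher in adenomas and Cdkn1a was lower. Over all 18913 features tested, 21.8% passed, 9.14% higher and 12.6% lower, so the share among the 9 genes was near that of the array as a whole. Cdkn2a also passed, but it was tested only because treated adenoma, where it was high, met the filter on dim probes, so it is kept out of this count and described by its detection. The median log2 difference was -0.11 over the 9 genes and -0.17 over all features. The median of all features depended on the scaling and was -0.02 after quantile normalization.

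Cdkn1c (p57) was the member with the largest measured rise. This imprinted Cip/Kip inhibitor marks non-dividing cells in many tissues. Its level was 1.88 and 2.28 in the treated adenomas (array 1, then arrays 2 to 4) and 1.45 and -0.56 in the untreated ones (arrays 1 and 2, then array 3). In tumor-bearing epithelium it was -1.54 in arrays 1 and 3, -2.53 in array 2 and -0.57 in array 4. In tumor-free epithelium it was -0.25 in array 1, -2.60 in array 2 and -1.43 in arrays 3 and 4. Both treated adenomas lay above every epithelium, whereas untreated adenoma array 3 was level with the highest epithelia. The log2 difference between adenomas and epithelia was 2.75 ± 0.59 (SE, n = 4 and 6), a 6.74-fold rise (adjusted p = 0.00894). It stayed called in each of the 30 alternatives run, with values of 2.21 to 3.25. Several of these could change little, since they dropped an array from a near-identical set or averaged the gene's only probe. Others counted near-identical arrays as independent.

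Taken group by group, Cdkn1c was 12.4-fold higher in treated adenoma than in tumor-bearing epithelium (log2 3.63 ± 0.83, adjusted p = 0.0188) and 11.4-fold higher than in tumor-free epithelium (3.51 ± 0.83, adjusted p = 0.0255). Of all features, 13.2% and 10.1% passed in these comparisons. In untreated adenoma the log2 differences of Cdkn1c were 2.00 ± 0.83 from tumor-bearing epithelium (adjusted p = 0.151) and 1.88 ± 0.83 from tumor-free epithelium (adjusted p = 0.200), and no member passed in either, where 11.6% and 9.58% of all features did. In untreated adenoma 2 of the 9 members tested had an unadjusted p under 0.05 in limma against tumor-bearing epithelium (28.5% of all features), and 3 of 9 against tumor-free epithelium (24.6%). Arrays scanned on the same date gave log2 differences of 3.35 and 2.93 between treated adenoma and tumor-bearing epithelium, and 3.57 and 2.87 between untreated adenoma and tumor-bearing epithelium. The last 2 values come from untreated arrays 1 and 2, which count as 1 sample, and untreated array 3, level with the highest epithelia, shared no date with an epithelium. Tumor-free epithelium shared no scan date with the adenomas. The Cdkn1c call against tumor-bearing epithelium was lost without treated array 1 (adjusted p = 0.0928), treated arrays 2 to 4 (0.102) or tumor-bearing array 2 (0.0544), and the log2 difference was then 3.14 to 3.83. The call against tumor-free epithelium was lost without treated array 1 (adjusted p = 0.105), treated arrays 2 to 4 (0.141), tumor-free array 2 (0.0795), tumor-free arrays 3 and 4 (0.0727) or the nearly alike arrays 2 of both epithelia (0.0652), with log2 differences of 2.92 to 3.71.

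Cdkn1a (p21), the best known p53 target among the inhibitors, fell in adenomas. Its level was 1.91 and 2.51 in the treated adenomas and 3.15 and 2.61 in the untreated ones. Tumor-bearing epithelium had 4.63 in arrays 1 and 3, 5.17 in array 2 and 2.57 in array 4, and tumor-free epithelium had 4.35 in array 1, 5.09 in array 2 and 3.81 in arrays 3 and 4. All epithelia except tumor-bearing array 4 lay above all adenomas. The difference was -1.72 ± 0.52 on the log2 scale (SE, n = 4 and 6), 3.31-fold lower, with adjusted p = 0.0400.

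That call on Cdkn1a was close to the threshold. It was lost on leaving out any of 8 of the 10 samples, namely all but tumor-bearing array 4 and tumor-free arrays 3 and 4, with adjusted p up to 0.130, and without the nearly alike arrays of both epithelia (-1.30, adjusted p = 0.149). Without tumor-bearing array 4 the difference was -2.11 (adjusted p = 0.00275). That array had the lowest Cdkn1a of the epithelia and also the lowest sum of absorptive colonocyte markers. It differed from its group's other arrays by an SD of 1.06 to 1.12 and had the lowest array weight of any sample (0.383). The part of those cells, or of the array itself, in the result was not tested.

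Cdkn2a, which encodes the INK4 inhibitor p16 and, from another reading frame, the Mdm2 inhibitor p19ARF, was the dimmest member. It was well above background on 4 of 4 treated adenoma arrays, 2 of 3 untreated adenoma arrays, 0 of 4 tumor-bearing and 0 of 4 tumor-free epithelium arrays. Its level was -6.09 in treated adenoma array 1 and -3.00 in arrays 2 to 4, and -5.74 and -8.29 in untreated adenoma. Untreated array 3 (-8.29) was not well above background. The lowest signal well above background on that array was -6.98, and that value, not the reading, was taken as the bound on its level. The dim epithelia read -8.40 to -7.22 (tumor-bearing) and -9.19 to -8.26 (tumor-free), likewise not well above background. Their upper bounds, as group means, were -5.52 and -6.63. Such bounds are approximate, since a probe can read above such a value and still not count as well above background. The highest signal was thus in 1 treated adenoma sample of near-identical arrays, while treated array 1 was within the range of the untreated adenomas.

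Set against the lowest signal well above background on each epithelium array, where the probe's own signal was not higher, Cdkn2a was at least 4.24-fold higher in treated adenoma than in tumor-free epithelium and at least 1.96-fold higher than in tumor-bearing epithelium. These folds are as approximate as the bounds they use. Both bounds rest on treated arrays 2 to 4: treated array 1 alone was at least 1.46-fold above tumor-free epithelium and lay below the bound for tumor-bearing epithelium. The limma fit takes the readings below background as they stand, and so says nothing on the size of these bounds. It gave adjusted p = 0.0231 against tumor-free epithelium, 0.0598 against tumor-bearing epithelium and 0.0330 over all adenomas and epithelia. In each of these Cdkn2a was tested only because treated adenoma, where it was high, met the filter on dim probes. No fold is given for all adenomas, since untreated array 3 was not well above background. The call over all samples was lost on leaving out 7 of the 10 samples in turn (all but untreated array 3, treated array 1 and tumor-bearing array 4), with adjusted p up to 0.137. The fitted log2 value without treated arrays 2 to 4 was 1.59, against 2.36 with them. With the normexp background it was 1.10 (adjusted p = 0.0999). Since the epithelia and untreated array 3 were not well above background, these fitted values are no folds. Which of both products of the locus the probe reads was not tested.

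Cdkn2b (p15), the neighbour of Cdkn2a and a known target of TGF-beta, was not called. It had 3.85 and 2.50 in treated adenoma and 1.84 and 2.87 in untreated adenoma. Tumor-bearing epithelium had 4.85 in arrays 1 and 3, 4.91 in array 2 and 1.89 in array 4, and tumor-free epithelium had 5.39, 4.95 and 4.39. The 5 epithelium samples other than tumor-bearing array 4 lay above all adenomas, as for Cdkn1a. The difference was -1.63 ± 0.63 (adjusted p = 0.0906), and without tumor-bearing array 4 it was -2.13 (adjusted p = 0.00472). It was also called with array weights (-1.92, adjusted p = 0.017) and in the fits that kept each array separate: as independent samples (-1.94, adjusted p = 0.00249), with the replicate number (-2.10, adjusted p = 0.000964) or the slide (-1.83, adjusted p = 0.00264) as a block, or with the averaged sample as a random block (-1.65, adjusted p = 0.0286).

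**Figure D1:**
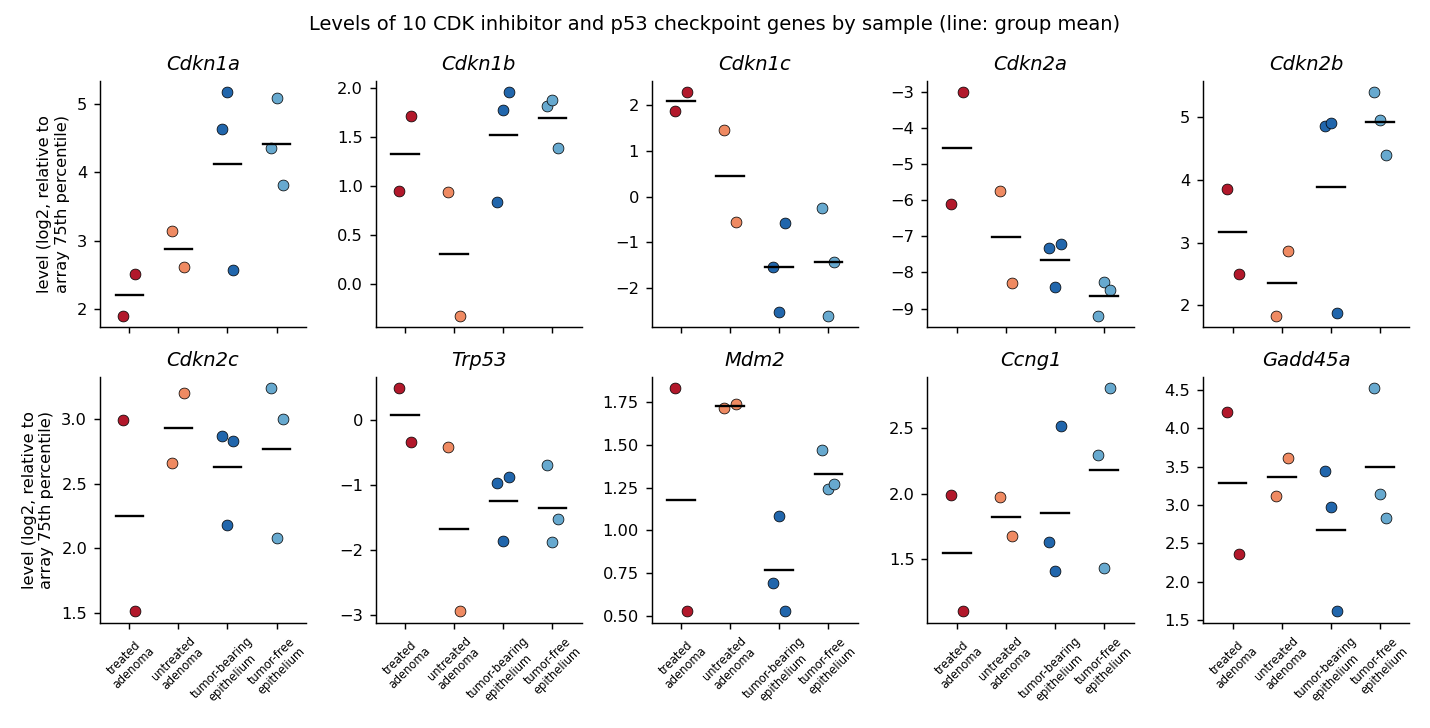
Levels of the 10 genes (log2, relative to the 75th percentile of the array) in 10 samples, with treated adenoma, untreated adenoma, tumor-bearing epithelium and tumor-free epithelium left to right. Points are samples, lines are group means, and each panel has its own vertical scale. Cdkn1c is highest in both treated adenomas (1.88 and 2.28), and tumor-bearing array 4 is the low epithelium point of Cdkn1a (2.57) and Cdkn2b (1.89). Cdkn2a was not well above background on any epithelium array, nor on untreated adenoma array 3, so those points are readings below detection and not measured levels.

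The other 6 genes were not called between adenomas and epithelia. Cdkn1b (p27), the Cip/Kip inhibitor cleared by the Skp2 and Cks1b ubiquitin ligase, had 0.95 and 1.71 in treated adenoma, 0.93 and -0.32 in untreated adenoma, 0.83 to 1.95 in tumor-bearing and 1.38 to 1.88 in tumor-free epithelium. Its log2 difference was -0.79 ± 0.38 (adjusted p = 0.161). Cdkn2c (p18) had 2.99 and 1.51 in treated adenoma, 2.66 and 3.21 in untreated adenoma, 2.19 to 2.87 in tumor-bearing and 2.08 to 3.24 in tumor-free epithelium, with a difference of -0.11 ± 0.40 (95% interval -0.997 to 0.779). Both inhibitors overlapped between the tissues.

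Trp53 had 0.49 and -0.34 in treated adenoma, -0.41 and -2.94 in untreated adenoma, -1.86 to -0.88 in tumor-bearing and -1.87 to -0.69 in tumor-free epithelium. The difference between adenomas and epithelia was 0.50 ± 0.52 (95% interval -0.66 to 1.65). Untreated adenoma array 3 was the lowest of all samples. Much of p53 control acts on the protein, which was not measured.

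Of the p53 targets among the members, Mdm2 had 1.83 and 0.53 in treated adenoma, 1.72 and 1.74 in untreated adenoma, 0.53 to 1.08 in tumor-bearing and 1.24 to 1.47 in tumor-free epithelium (difference 0.41 ± 0.33, 95% interval -0.32 to 1.13). Ccng1, cyclin G1, had 1.99 and 1.10 in treated adenoma, 1.97 and 1.68 in untreated adenoma, 1.41 to 2.52 in tumor-bearing and 1.43 to 2.81 in tumor-free epithelium (difference -0.33 ± 0.39, 95% interval -1.19 to 0.53). Gadd45a, a stress gene whose protein binds PCNA and p21, had 4.21 and 2.36 in treated adenoma, 3.11 and 3.61 in untreated adenoma, 1.61 to 3.45 in tumor-bearing and 2.83 to 4.52 in tumor-free epithelium (difference 0.24 ± 0.53, 95% interval -0.95 to 1.43). Adenoma and epithelium values overlapped for all of them.

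**Figure D2:**
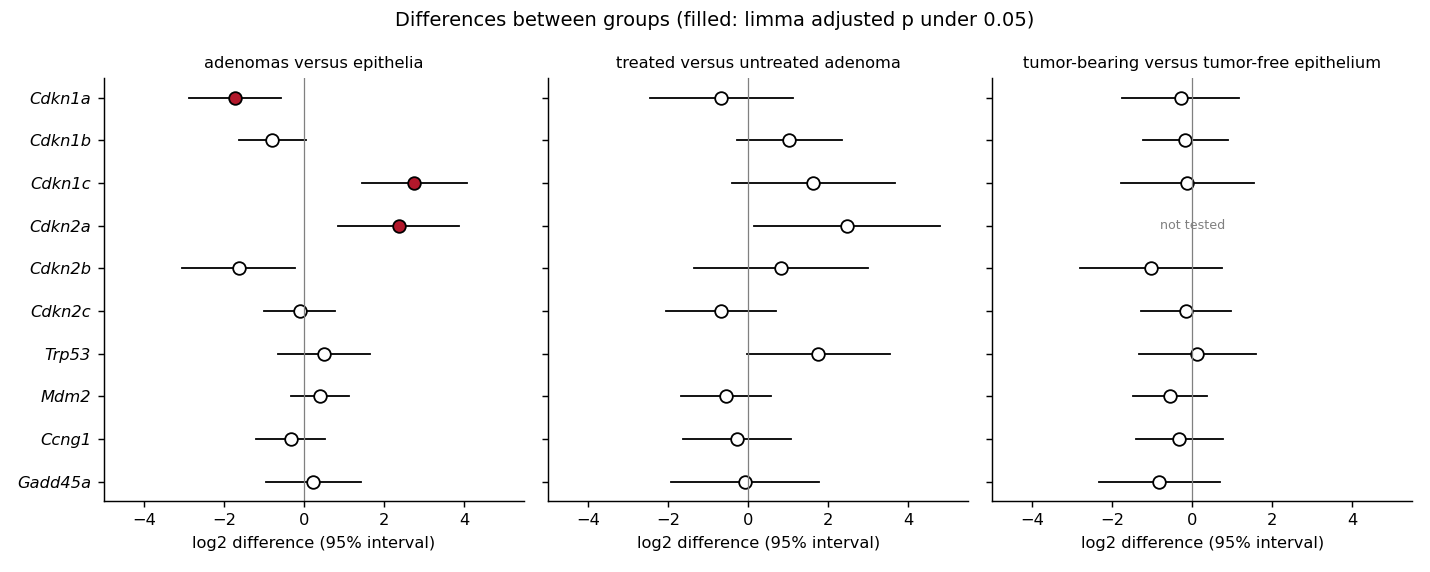
Log2 differences of the 10 genes with 95% intervals for adenomas versus epithelia, treated versus untreated adenoma and tumor-bearing versus tumor-free epithelium, with genes down the page. Filled points passed an adjusted p of 0.05 in limma. Of these only Cdkn1a (-1.72), Cdkn1c (2.75) and Cdkn2a in the left panel are filled, and the Cdkn2a values are fits that include samples below background.

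The treatment comparison asked how sulindac with atorvastatin for 7 days changed these genes in adenoma. None of the 10 genes passed the test in limma, and 0.216% of the 17629 features tested passed. An unadjusted p under 0.05 was found for 1 of the 10, Cdkn2a, and for 11.8% of all features. Cdkn2a was tested here only because treated adenoma, where it was high, met the filter on dim probes. Treated and untreated samples did not overlap for 4 of the 10 genes and for 46.9% of all features, so the count was no higher than over the array. These were Cdkn1a, lower in both treated samples, and Cdkn1b, Cdkn1c and Trp53, higher in both.

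The log2 difference of Cdkn1a, treated minus untreated, was -0.67 ± 0.80 (95% interval -2.46 to 1.12, adjusted p = 0.801). That of Cdkn1b was 1.02 ± 0.59 (-0.29 to 2.33, adjusted p = 0.540), that of Cdkn1c 1.63 ± 0.91 (-0.40 to 3.67, adjusted p = 0.526) and that of Trp53 1.75 ± 0.80 (-0.04 to 3.54, adjusted p = 0.431). For Cdkn2a the groups overlapped and the fit gave adjusted p = 0.400, and no size is given because untreated array 3 was not well above background. With 2 samples a group the intervals span several-fold changes either way or upwards, so the data leave the size of any response wide.

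The pairs of arrays scanned on the same date differed among themselves. Treated minus untreated, Cdkn1c was 0.47 on one date (1 array each) and 2.81 on another (2 treated arrays and 1 untreated), and Trp53 was 0.87 and 2.63. Cdkn2a was -0.34 on the first of these dates, and on the second it was well above background on the treated arrays but not on the untreated one. Cdkn1a was -1.21 and -0.05 on these dates. Untreated adenoma array 3, the untreated array of the second date, held the lowest Cdkn1b, Cdkn1c and Trp53 of all adenomas. The remaining genes had differences of 0.81 ± 0.97 (Cdkn2b), -0.68 ± 0.62 (Cdkn2c), -0.55 ± 0.50 (Mdm2), -0.28 ± 0.60 (Ccng1) and -0.07 ± 0.83 (Gadd45a). For each of them treated array 1 lay above treated arrays 2 to 4, by more than the gap between the untreated samples.

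Tumor-bearing and tumor-free epithelium, both from atorvastatin-fed mice, were compared to ask whether normal epithelium differs when an adenoma is present. Of the 10 genes 9 could be tested, none passed in limma and none had an unadjusted p under 0.05; 0% of the 17647 features tested passed and 2.62% had an unadjusted p under 0.05. Cdkn2a was not well above background in either group. The largest difference was Cdkn2b at -1.03 ± 0.80 (95% interval -2.80 to 0.74), which rested on tumor-bearing array 4. Gadd45a was -0.82 ± 0.67, Mdm2 -0.56 ± 0.41, Ccng1 -0.32 ± 0.49 and Cdkn1a -0.29 ± 0.65. The differences of Cdkn1b (-0.17), Cdkn2c (-0.15), Cdkn1c (-0.12) and Trp53 (0.12) were smaller still, and the narrowest of their 95% intervals, that of Cdkn1b, ran from -1.24 to 0.90. Mdm2 was the one gene of 9 without overlap, where 7.44% of all features had none, at 0.69 in arrays 1 and 3, 1.08 in array 2 and 0.53 in array 4 of tumor-bearing epithelium, against 1.47, 1.24 and 1.27 in tumor-free epithelium.

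Genes with several probes show how far these values depend on the probe read. Cdkn1b had 3 probes. Only the most 3′ was well above background on all 15 arrays, while those 4112 and 1609 genomic bases upstream of it were so on 1 array each. The array design lists the most 3′ probe under another transcript record than the upstream ones. Every Cdkn1b level above is that of the most 3′ probe, and whether all 3 read the same transcript was not tested. For Mdm2 the most 3′ probe was well above background on 15 arrays and that 3447 genomic bases upstream on 1. The RNA had gone through rounds of linear amplification, and the part of that step in the low signal of the upstream probes was not tested. For each gene the dim probe farthest from the 3′ one is shown whole, and the 3′ one by its first 30 bases.
Cdkn1b, upstream, chr6:134935407-134935465, plus strand: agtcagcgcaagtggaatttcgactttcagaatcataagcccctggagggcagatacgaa
Cdkn1b, most 3′, chr6:134939519-134939578, plus strand: ttcattgcctgtgtatgagaaaaacttgga
Mdm2, upstream, chr10:117204040-117204099, minus strand: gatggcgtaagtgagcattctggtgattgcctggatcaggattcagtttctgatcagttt
Mdm2, most 3′, chr10:117200593-117200652, minus strand: cattcagaaagactgaatcagaacatggat

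The probe pairs of Cdkn2c, Ccng1 and Trp53 were well above background on all arrays. Those of Cdkn2c share 40 bases and moved together. After each probe was centred on its own mean over the 10 samples, they differed by 0.0474 (root mean square). The Ccng1 pair, 1986 genomic bases apart, differed by 0.548, and its treated minus untreated differences had opposite signs, -0.28 ± 0.61 for the brighter probe and 0.20 ± 0.60 for the other. The Trp53 pair, 9175 genomic bases apart, differed by 1.34, more than the Trp53 samples did from their own mean (0.925).
Trp53, most 3′, chr11:69671206-69671265, plus strand: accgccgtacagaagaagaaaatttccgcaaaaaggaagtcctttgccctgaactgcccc
Trp53, upstream, chr11:69662031-69662089, plus strand: gcattcaggccctcatcctcctccttccca

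The 3′ Trp53 probe gave the values above. The upstream one had -1.67 and -1.60 in treated adenoma, -1.93 and -0.97 in untreated adenoma, -0.47, -0.34 and -1.65 in tumor-bearing epithelium, and -1.11, -0.58 and -0.78 in tumor-free epithelium. Its treated minus untreated difference was -0.19 ± 0.58, against 1.75 ± 0.81 with the 3′ probe in the same fit over all probes. Between adenomas and epithelia it was -0.72 ± 0.37, against 0.50 ± 0.52. None of these passed the test, and the sign of the Trp53 difference depended on the probe in both comparisons.

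**Figure D3:**
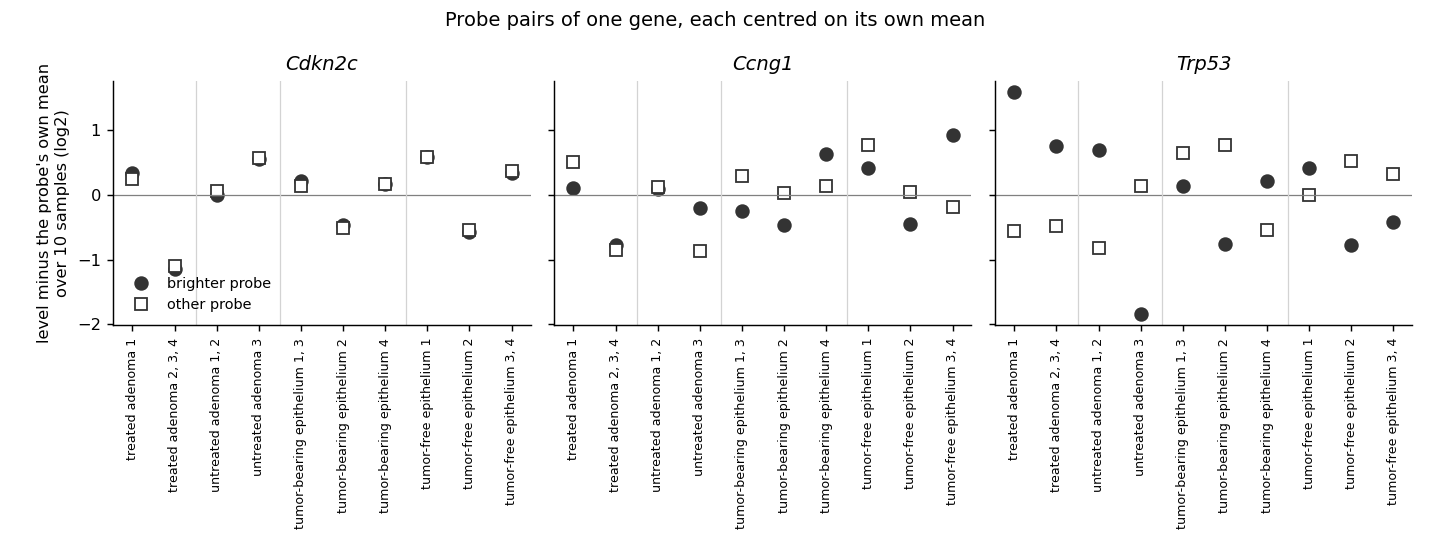
Levels of both probes of Cdkn2c, Ccng1 and Trp53 in 10 samples, each minus the probe's own mean over the samples (log2). Samples run from treated adenoma at the left through untreated adenoma and tumor-bearing epithelium to tumor-free epithelium at the right. The Cdkn2c probes nearly coincide (root mean square difference 0.0474), and the Trp53 probes lie on opposite sides of 0 in most samples (1.34).

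Related gene lists placed the 10 genes in their pathway. None of the 6 lists had a member called between treated and untreated adenoma or between the epithelia. Between adenomas and epithelia, where 21.8% of all features passed, 1 of 7 relatives of the inhibitors was called, Cdkn2aipnl, 2.05-fold higher. Cdkn2d (p19), the remaining INK4 gene, differed by -0.21 ± 0.43 (adjusted p = 0.746).

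Among 12 regulators of p53 that were tested, 2 were higher and 0 lower. They were the checkpoint kinase Chek1 (3.44-fold, adjusted p = 0.0125) and the p53-binding repair protein Trp53bp1 (2.39-fold, adjusted p = 0.0226). Mdm4, the inhibitory partner of Mdm2, differed by 0.48 ± 0.44 and the damage kinase Atm by 0.64 ± 0.65, and neither passed.

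Of 30 p53 targets outside the members, 5 were higher and 3 lower. Rrm2b, a ribonucleotide reductase subunit, was 3.50-fold (well above background on 6 of 8 epithelium arrays) and the kinase Plk2 2.75-fold higher. Rprm, a G2 arrest gene, was 9.27-fold lower (adjusted p = 0.00532). The targets thus moved in both directions, with a list median of 0.18 against -0.17 over all features.

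Among 16 cyclins, CDKs and Rb and E2F genes, 3 were higher and 1 lower. The kinases that the inhibitors act on were among them: Cdk2 was 3.61-fold (well above background on 6 of 8 epithelium arrays) and Cdk4 3.05-fold higher (adjusted p = 0.0358), and the Cdk2 partner Ccne1 was 2.64-fold higher. Rb1, the CDK4 substrate, was 2.44-fold lower. Cyclin D1 (Ccnd1) at 1.23 ± 0.50 and Cdk6 at 1.07 ± 0.42 were not called (adjusted p = 0.106 and 0.0926). Of 13 proliferation genes, 3 were higher and 0 lower: Rrm2 3.16-fold, Mcm3 2.19-fold and Mcm2 2.04-fold. Mki67, the usual mark of cycling cells, differed by -0.25 ± 0.36 (adjusted p = 0.632).

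Among 17 known upstream regulators of the inhibitors, 4 were higher and 3 lower, 41.2% of the list. Klf4, a differentiation factor of the colon known to activate Cdkn1a, was 9.13-fold lower (-3.19 ± 0.35, adjusted p = 0.000208). Myc, known to repress Cdkn1a and Cdkn2b, was 3.32-fold higher (1.73 ± 0.28, adjusted p = 0.00188). The Polycomb gene Bmi1, which represses the Cdkn2a locus, was 2.62-fold higher (adjusted p = 0.0128). Foxo1, an activator of Cdkn1b, was 2.06-fold lower. Between treated and untreated adenoma Myc differed by -1.52 ± 0.43 (adjusted p = 0.238).

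**Figure D4:**
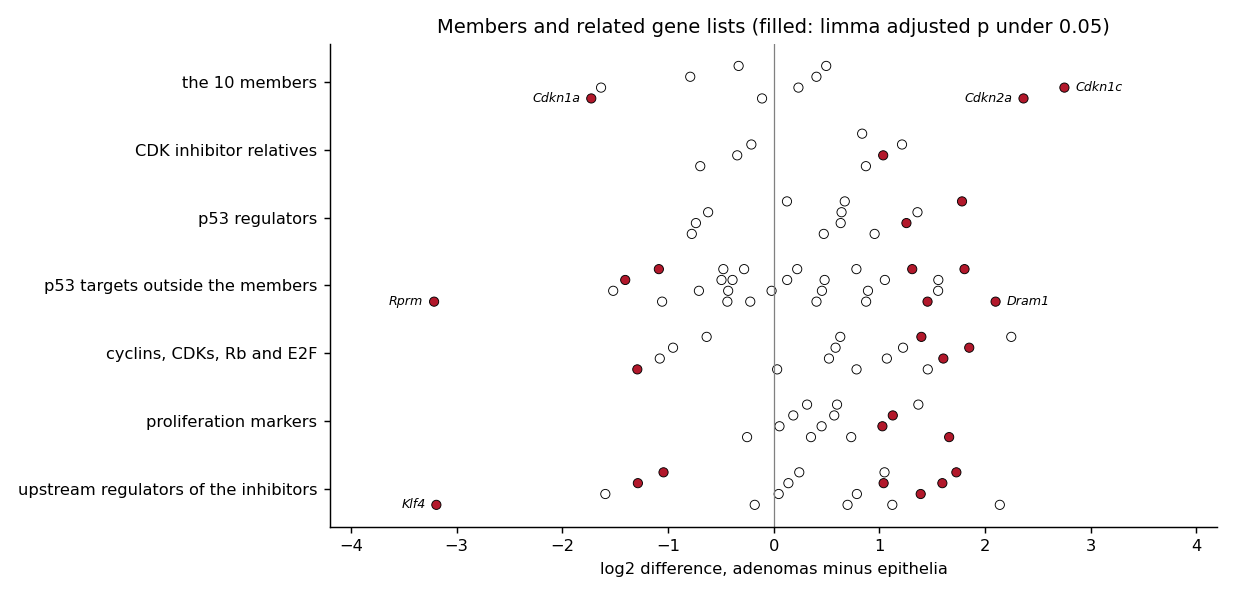
Log2 differences, adenomas minus epithelia, for the 10 genes and 6 related lists, 1 point a gene. Filled points passed an adjusted p of 0.05 in limma, and those beyond 2 on either side, and the called members, are named. Genes within 4 on either side of 0 are drawn. Among them Rprm and Klf4 are farthest left (-3.21 and -3.19) and Cdkn1c is farthest right (2.75). The Cdkn2a value is a fit that includes samples below background.

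The genes whose pattern over the 10 samples was most like that of a member were found among 11835 named genes well above background on all arrays, by the root mean square difference after centring. For Cdkn1a they were Cdc42ep5 (0.202), Xdh (0.256) and 1500009L16Rik (0.282), against a spread of Cdkn1a itself of 1.12. For Cdkn2b the closest were Pde7a (0.342) and Slc40a1 (0.358), against 1.29, and for Cdkn1c Igsf11 (0.398), Pgm2l1 (0.583) and Tenm4 (0.599), against 1.66. The samples share arrays, tissue and drug, and the distances are a description. The nearest gene to Ccng1 was Fpgt (0.155), to Cdkn2c Rnf115 (0.193), to Mdm2 Mtx2 (0.198), to Gadd45a Arl13b (0.235), to Cdkn1b Setd1b (0.278) and to Trp53 Rtf1 (0.396).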

How the data were processed

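The authors read the 1-colour arrays with Agilent Feature Extraction 9.5.3, per the submitters' processing notes. The deposited processed intensity is background-subtracted and not normalized between arrays, per the file headers. The authors also deposited a table of log2 values, whose 4 tumor-bearing columns matched the scanner files of the group in reverse order and were matched within it, for use as an alternative. Per the labels' protocols, 10 ng of microdissected RNA was amplified. The number of arrays limits the precision.

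Here processed intensities were log2-transformed, the 75th percentile of all non-control probes was subtracted array by array, outlier-flagged spots were left out and spots of a probe averaged. Outlier flags covered 9.12% and 7.81% of spots on untreated adenoma 2 and tumor-bearing epithelium 1 and at most 1.14% elsewhere. Names came from a RefSeq table of GRCm38.p6 (22937 probes by accession, 6657 by symbol, 3109 by synonym, 2024 kept the file's name and 6447 had none). A gene was read by its brightest probe. limma 3.58.1 in R 4.3.3 (lmFit and eBayes, 6 residual and 3.9 prior degrees of freedom) was fitted to all 4 groups, two-sided, with Benjamini-Hochberg adjustment over all features tested, namely those that all arrays of 1 or both compared groups had well above background. Intervals are 95%. The scripts were tested on simulated data.

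The members, lists and near-identical arrays were chosen with earlier results of these data known. Named genes are all members, the called genes of each list up to 4 by moderated t, and Cdkn2d, Mdm4, Myc, Ccnd1, Cdk4, Cdk6, Mki67 and Atm always. Atr had no feature. Some genes that the rule names are not reported here. Alternatives covered background correction, scaling, merging, blocks, weights, filter, probe choice and left-out samples.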

Additional observations from a re-analysis of the deposited data

How the results depend on the processing

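Of 880 member results recomputed under 31 alternatives, 823 kept their direction and their side of the threshold. Several alternatives could change little, since they dropped an array from a near-identical set whose sample stayed in. The count of members called between the epithelia was 0 throughout. Between adenomas and epithelia it was 3 with Cdkn2a, 2 with normexp or with no filter on dim probes (Cdkn1a at adjusted p = 0.052), 1 without the nearly alike arrays 2 of both epithelia and 1 to 4 with an array or sample left out. It was 4 with every array as its own sample, the replicate block, the slide, array weights or the averaged sample as a random block. The share of all features called moved too, being 21.8% in the reported fit, 47.5%, 49.3%, 47%, 32.5% and 28.4% in those 5 fits, 22.9% with normexp, 13.3% with no filter and 12.8% without the nearly alike arrays. Where leaving out a sample left an adenoma group with 1 sample, that lone sample was assumed to vary like the other groups. Treated adenoma against tumor-bearing epithelium had 1 member called, 2 with the authors' table, 3 each with every array as its own sample, the replicate number, scan date or slide as a block, array weights or the averaged sample as a random block (chosen after seeing the data), and 0 to 2 with samples left out. Cdkn2a was called with the authors' table and in each fit with 3 members. Of 17003 features, 2244 were called in the reported fit and 2645 with the authors' table. Every array separate, the replicate number, the scan date and the slide gave 7213, 7280, 5496 and 6645. Array weights gave 3614 and the averaged sample as a random block 3759. Treated adenoma against tumor-free epithelium had 2, 1 with the normexp background, 5 with every array as its own sample, 0 without the nearly alike arrays, 7 with the replicate block, 4 with the slide and 0 to 3 with samples left out, while 10.1% of all features were called in the reported fit, 11.1% with normexp, 33.1% with every array separate, 6.38% without the nearly alike arrays, 33.7% with the replicate block and 29.2% with the slide. The 2 members of the reported fit were Cdkn1c and Cdkn2a. There Cdkn2a was tested only through treated adenoma, where it was high. Treated against untreated adenoma had 0, and 1 (Cdkn2a) with every array separate, the replicate block or the slide. Of 17629 features, 38 were called in the reported fit and 2410, 2578 and 2277 in those fits, in that order. Untreated adenoma against tumor-bearing epithelium had 0, 3 with every array separate, 4 with the replicate block, 3 with the scan date or the slide and 0 to 2 with samples left out. Of 17405 features, 2014 were called in the reported fit. Every array separate, the replicate block, the scan date and the slide gave 6843, 7366, 6771 and 7256. Against tumor-free epithelium untreated adenoma had 0, 3 with every array separate or the replicate block, 2 with the slide or the averaged sample as a random block, 1 with array weights and 0 to 1 with samples left out. Of 18619 features, 1783 were called in the reported fit. Every array separate, the replicate block and the slide gave 5050, 5458 and 5049. The averaged sample as a random block gave 3032 and array weights 2652. The fits with every array separate count near-identical arrays as independent.

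Whether replicate numbers in the labels pair samples across groups could not be told from these arrays. The correlation of deviations was -0.30 to 0.52 in 21 same-numbered pairs across groups, 9 of them over 0.1. In the 63 other pairs it was -0.51 to 0.42. Of 15 arrays, 7 correlated best with an array of their own number. The scan date block could be fitted only without tumor-free epithelium.

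Signs that turned belonged to differences that were not called. Between the epithelia Cdkn1a was 0.0318 with array weights and Cdkn1b 0.69 with the mean over all probes. Between adenomas and epithelia Cdkn2c was 0.11 after quantile normalization and 0.0547 in the authors' table, Gadd45a -0.0512 with every array separate, -0.17 with the replicate block and -0.000393 with the slide, and Trp53 -0.11 with the mean over all probes. With samples left out, the adenoma and epithelium difference ranged from -0.48 to 0.26 for Cdkn2c, -0.23 to 0.70 for Gadd45a and -0.14 to 1.13 for Trp53. Between treated and untreated adenoma it ranged from -1.42 to 0.0582 for Cdkn2c, -1.001 to 0.857 for Gadd45a, -1.20 to 0.10 for Mdm2 and -0.72 to 0.17 for Ccng1. Between the epithelia it ranged from -0.81 to 0.48 for Cdkn1a, -0.39 to 0.17 for Cdkn1b, -0.71 to 0.47 for Cdkn1c, -0.49 to 0.0879 for Cdkn2c and -0.14 to 0.46 for Trp53. Single left-out samples gave Cdkn2c 0.00809 (without tumor-free array 1) and 0.0286 (without untreated arrays 1 and 2) between adenomas and epithelia. There Gadd45a ran from -0.23 (without treated array 1, sign turned) to 0.49 (without tumor-free array 1, sign kept) with 1 array left out, and it also turned without tumor-bearing array 4 (-0.031). They gave Gadd45a 0.18 between treated and untreated adenoma (without untreated array 3) and Trp53 -0.0126 between the epithelia (without tumor-bearing arrays 1 and 3). The cause was not tested for any of these.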
